A study of Mus musculus with 9 samples.

Results

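CatSper is the calcium channel of the sperm tail. The transcripts of 8 of its subunits were followed through mouse germ cell development: Catsper1, Catsper2, Catsper3, Catsper4, Catsperb, Catsperd, Catsperg1 and Catsperg2, chosen by gene symbol from the 39305 features with a value in every library of the authors' mRNA table. All 8 passed the filter on low values (at least 0.5 FPKM in at least 3 libraries). Spermatogonia divide by mitosis, pachytene spermatocytes have entered meiosis and pair their chromosomes, and round spermatids, the product of meiosis, later build the flagellum. Stranded RNA sequencing of testis germ cells from adult male mice on a normal diet gave 9 libraries, 3 for each stage, with type A and type B spermatogonia labelled as a single stage. The labels name no strain, genotype or treatment, and the series calls the samples biological replicates without saying whether each came from its own animals or how the cells were separated. The p-values therefore measure the spread between these samples.

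CATSPER1 to CATSPER4 each give a subunit of the calcium-selective pore in the plasma membrane of the sperm tail's principal piece. CATSPERB, CATSPERD and CATSPERG are auxiliary membrane proteins with large extracellular parts, and the mouse has a pair of genes for the gamma subunit. The channel opens as the cell interior turns alkaline and at positive voltage, and it drives the hyperactivated beating that a sperm needs to fertilise an egg. Male mice without a pore subunit, or without Catsperd, are infertile.

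The members fell into separate expression patterns, so the sequences in front of their start sites are shown for a late pair and an early trio. Catsper3 and Catsper4 transcripts were about 13 times as abundant in round spermatid as in pachytene libraries. Their pachytene level cannot be told apart from round spermatid RNA within those libraries. Catsperb, Catsperd and Catsperg1 were highest in pachytene libraries. The 250 bases before the start sites of the pair are set against those of the trio. They come from RefSeq on GRCm38.p6, run 5′ to 3′ along the gene's strand, and lack the few bases that another annotation counts as untranslated region. Capitals mark matches, on either strand, to 8 searched motifs: the cAMP response element CRE (TGACGTCA), the CRE core it contains (TGACG), an RFX site (GTTGCC), a MYB site (CAGTTG), a SOX site (ACAAT), the TATA box (TATAAA), the GC box (GGGCGG) and the CCAAT box (CCAAT). Catsper3 is at chr13:55784329-55784567 on the plus strand, Catsper4 at chr4:134227384-134227633 on the minus strand, Catsperb at chr12:101404423-101404672 on the plus strand, Catsperd at chr17:56627893-56628142 on the plus strand and Catsperg1 at chr7:29214036-29214283 on the minus strand.
Catsper3: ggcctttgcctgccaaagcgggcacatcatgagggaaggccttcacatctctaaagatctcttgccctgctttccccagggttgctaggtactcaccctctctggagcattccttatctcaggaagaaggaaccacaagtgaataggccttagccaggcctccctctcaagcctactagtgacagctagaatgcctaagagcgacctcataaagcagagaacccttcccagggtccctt
Catsper4: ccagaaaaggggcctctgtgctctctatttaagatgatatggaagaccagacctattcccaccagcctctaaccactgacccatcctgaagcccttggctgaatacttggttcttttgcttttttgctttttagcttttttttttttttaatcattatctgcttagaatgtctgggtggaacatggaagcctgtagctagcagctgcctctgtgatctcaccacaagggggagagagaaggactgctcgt
Catsperb: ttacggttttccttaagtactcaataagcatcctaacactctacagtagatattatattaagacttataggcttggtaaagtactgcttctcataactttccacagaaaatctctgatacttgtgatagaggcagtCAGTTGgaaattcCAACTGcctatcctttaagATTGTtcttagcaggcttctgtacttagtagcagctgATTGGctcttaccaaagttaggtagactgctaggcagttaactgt
Catsperd: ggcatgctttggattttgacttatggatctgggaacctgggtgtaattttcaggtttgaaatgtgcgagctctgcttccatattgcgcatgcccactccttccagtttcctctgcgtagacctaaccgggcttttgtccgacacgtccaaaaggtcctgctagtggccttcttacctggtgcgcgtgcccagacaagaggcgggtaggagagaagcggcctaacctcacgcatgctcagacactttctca
Catsperg1: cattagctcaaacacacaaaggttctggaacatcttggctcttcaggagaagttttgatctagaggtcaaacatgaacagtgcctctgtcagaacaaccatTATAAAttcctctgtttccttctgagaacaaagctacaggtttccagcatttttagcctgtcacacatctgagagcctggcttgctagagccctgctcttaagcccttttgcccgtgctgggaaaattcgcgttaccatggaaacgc
The printed windows of Catsper3, Catsper4 and Catsperd held none of the 8 motifs. RefSeq gives Catsperd and Catsperg1 a further start site each, and the printed window is the one nearest to the gene start in GENCODE M21. The window of the other Catsperd start at chr17:56626797-56627046 held the CRE core 3 times and the GC box. It matched no GENCODE M21 transcript and overlaps Lonp1, a neighbouring gene on the opposite strand (chr17:56614297-56626887). The window of the other Catsperg1 start, 3110 bases from the gene start, held the GC box. Catsperb held the MYB site, on each strand, the SOX site and the CCAAT box, and Catsperg1 held the TATA box 149 bases before its start. Over 32851 promoter windows of the same length, CRE was in 1.55%, the CRE core in 17.8%, the RFX site in 10.4%, the MYB site in 11.1%, the SOX site in 27.7%, the TATA box in 12.4%, the GC box in 32.7% and the CCAAT box in 33.8%. The GC content was 54.0% in the Catsper3 window, 45.2% in Catsper4, 38.0% in Catsperb, 52.8% in Catsperd and 46.0% in Catsperg1, against a median of 52.4% over all windows. The Catsper2 window, of which 246 bases lie in an annotated untranslated region of the neighbouring Pdia3, had a GC content of 74.8% and held the CRE core, the GC box and the CCAAT box. The Catsper3 window overlaps the long non-coding RNA gene 4930451E10Rik on the opposite strand, which reaches to chr13:55784505. Of the 8 members, 6 matched the promoter table.

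The labels were checked against marker lists. The summed FPKM (fragments per kilobase of transcript, scaled to the library's total) of 12 spermatogonial markers was 486 to 616 in spermatogonia, 107 to 114 in pachytene and 192 to 208 in round spermatid libraries. That of 12 pachytene markers was 121 to 145, 8650 to 8950 and 6930 to 7140 in the same order of stages, and that of 12 round spermatid markers, protamines and transition proteins among them, was 1.66 to 2.01, 1500 to 1700 and 16700 to 17200. Sertoli cell markers summed to 1290 to 1540 in spermatogonia, 304 to 320 in pachytene and 84.0 to 86.9 in round spermatid libraries. Peritubular and interstitial markers summed to 185 to 396, 10.5 to 11.5 and 35.8 to 37.4 in that order of stages, endothelial ones to 28.5 to 64.2, 3.48 to 4.81 and 7.53 to 9.97, red cell ones to 114 to 317, 5.44 to 7.08 and 2.16 to 3.55, macrophage ones to 6.94 to 33.9, 6.73 to 8.49 and 19.6 to 23.7, and Leydig cell ones to 36.9 to 42.0, 90.2 to 97.9 and 19.4 to 28.1. Spermatogonia replicate 3 stood apart, with the highest peritubular and interstitial, endothelial, red cell and macrophage sums. The excess of the first sum lay mainly in Des (65.8 FPKM, against 1.76 and 1.33 in replicates 1 and 2) and Dcn (126.3, against 22.95 and 20.12). Col1a1, Col1a2 and Pdgfra were also highest there, but Acta2, Myh11 and Cnn1 were highest in replicate 1. Without replicate 3, 8 of 8 members were still called higher in pachytene and in round spermatid libraries against spermatogonia. The part of these cells in the CatSper values was not tested. Log2 values of library pairs correlated at 0.969 to 0.986 across features within a stage, features not being independent replicates.

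All 8 CatSper transcripts were low in spermatogonia, at up to 2.29 FPKM for Catsperg1 and 1.75 FPKM for Catsper2 and under 0.5 FPKM for the other members, and all were called higher in pachytene libraries. Catsper2 and the auxiliary genes Catsperb, Catsperd, Catsperg1 and Catsperg2 stood at 64.3 to 127.8 FPKM on average in pachytene libraries. Catsper1, Catsper3 and Catsper4 stood at 4.54 to 6.89 FPKM there, a level that cannot be told apart from round spermatid RNA within those libraries, and rose about 13-fold in round spermatids. In bulk libraries, fewer cells of a type and less RNA per cell cannot be told apart.

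Among the pore-forming genes, Catsper1 (chr19:5335741-5344153, plus strand, 12 exons) was listed at 0, 0 and 0.0188 FPKM in spermatogonia replicates 1 to 3, 4.58, 4.63 and 4.42 FPKM in pachytene and 56.7, 58.7 and 60.7 FPKM in round spermatid libraries. Each step lay far outside the library spread. Its log2 fold change, on the log2(FPKM + 0.1) scale used throughout, was 5.45 in pachytene against spermatogonia (SE 0.097, limma adjusted p = 3.99e-11) and 3.66 in round spermatids against pachytene (SE 0.097, adjusted p = 3.98e-09). A pseudocount of this kind understates the change of low features.

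Catsper3 (chr13:55784568-55808998, plus strand, 8 exons) was listed at 0, 0.120 and 0.161 FPKM in spermatogonia, 5.67, 5.51 and 5.21 FPKM in pachytene and 73.4, 70.8 and 75.0 FPKM in round spermatids. The stages did not overlap. The log2 fold change was 4.96 in pachytene against spermatogonia (SE 0.30, adjusted p = 1.93e-07) and 3.72 in round spermatids against pachytene (SE 0.30, adjusted p = 3.22e-06).

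Catsper4 (chr4:134211970-134227383, minus strand, 11 exons) was listed at 0.0251, 0.0132 and 0.0117 FPKM in spermatogonia, 6.80, 7.06 and 6.79 FPKM in pachytene and 90.3, 89.9 and 94.5 FPKM in round spermatids. It followed Catsper1 closely, with a log2 fold change of 5.91 in pachytene against spermatogonia (SE 0.077, adjusted p = 5.97e-12) and 3.71 in round spermatids against pachytene (SE 0.077, adjusted p = 1.56e-09).

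Catsper2 (chr2:121392631-121413792 in GENCODE M21, minus strand, 13 exons) departed from the other pore genes. It was the most abundant member in pachytene and round spermatid libraries, at 1.28, 1.75 and 1.71 FPKM in spermatogonia, 127.5, 127.6 and 128.2 FPKM in pachytene and 180.7, 185.8 and 192.3 FPKM in round spermatids. The log2 fold change was 6.26 in pachytene against spermatogonia (SE 0.10, adjusted p = 2.08e-11) and 0.54 in round spermatids against pachytene (SE 0.10, adjusted p = 0.000897), a difference under the 2-fold limit for a call. Pdia3, an endoplasmic reticulum chaperone gene on the opposite strand, shares 18 exon bases with Catsper2, and the authors' table gives both a merged position. Pdia3 averaged 78.2 FPKM in spermatogonia, where Catsper2 averaged 1.58 FPKM.

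**Figure D1:**
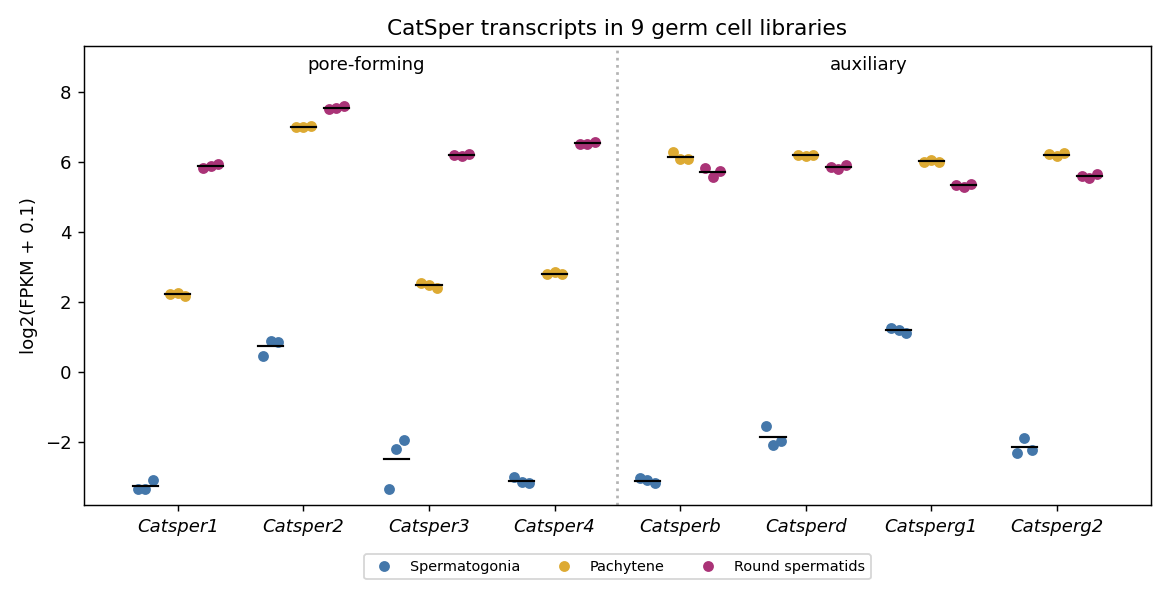
Level of each CatSper gene as log2(FPKM + 0.1) in the 9 libraries; points are libraries, coloured by stage, and black bars are the means of 3. Catsper1, Catsper3 and Catsper4 climb in a pair of steps. Their pachytene level cannot be told apart from round spermatid RNA within those libraries. Catsper2 and the 4 auxiliary genes are at 68.6% or more of their round spermatid level in pachytene libraries.

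Among the auxiliary genes, Catsperb (chr12:101404673-101626009, plus strand, 27 exons) was listed at 0.0220, 0.0180 and 0.0113 FPKM in spermatogonia, 77.1, 67.4 and 67.3 FPKM in pachytene and 56.8, 47.4 and 53.5 FPKM in round spermatids. It had the largest rise among the 8 members in pachytene against spermatogonia, a log2 fold change of 9.24 (SE 0.090, adjusted p = 1.04e-12). Against pachytene cells, round spermatids had a log2 fold change of -0.43 (SE 0.090, adjusted p = 0.00202).

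Catsperd (chr17:56628143-56664456, plus strand, 22 exons) was listed at 0.242, 0.135 and 0.156 FPKM in spermatogonia, 73.1, 71.4 and 72.2 FPKM in pachytene and 57.9, 55.7 and 59.6 FPKM in round spermatids. The log2 fold change was 8.04 in pachytene against spermatogonia (SE 0.12, adjusted p = 1.47e-11) and -0.32 in round spermatids against pachytene (SE 0.12, adjusted p = 0.0381).

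The gamma subunit genes lie on the same chromosome and are near copies. Their coding sequences had 3310 identical bases, 96.4% of the aligned ones, and 21.3% of the 100-base windows of the Catsperg1 transcript also occur in that of Catsperg2. The first 90 coding bases of each show how little sets them apart, with the differing base in capitals.
Catsperg1: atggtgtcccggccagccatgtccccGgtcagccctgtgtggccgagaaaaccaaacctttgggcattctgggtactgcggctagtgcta
Catsperg2: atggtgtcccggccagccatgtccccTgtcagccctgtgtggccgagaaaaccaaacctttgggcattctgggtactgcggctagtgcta
Reads of 100 bases from a shared stretch could have been assigned to either gene, so the level of each is uncertain to that extent. No 100-base window was shared between other pairs of pore-forming or of auxiliary members.

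Catsperg1 (chr7:29181321-29214035, minus strand, 29 exons) was listed at 2.29, 2.18 and 2.08 FPKM in spermatogonia, 63.9, 65.4 and 63.6 FPKM in pachytene and 39.9, 39.0 and 41.4 FPKM in round spermatids. Catsperg2 (chr7:29697219-29727015, minus strand, 29 exons) was listed at 0.103, 0.171 and 0.114 FPKM in spermatogonia, 73.9, 70.9 and 75.3 FPKM in pachytene and 48.4, 46.5 and 50.4 FPKM in round spermatids. The copies thus differed most in spermatogonia, where the Catsperg1 libraries lay above those of every other member and Catsperg2 was near absent. In pachytene against spermatogonia the log2 fold change was 4.82 for Catsperg1 (SE 0.052, adjusted p = 1.94e-12) and 8.34 for Catsperg2 (SE 0.10, adjusted p = 4.42e-12). Relative to pachytene cells, it was in round spermatids -0.68 for Catsperg1 (SE 0.052, adjusted p = 2.35e-06) and -0.60 for Catsperg2 (SE 0.10, adjusted p = 0.000607).

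In pachytene against spermatogonia, 8 of 8 members were called higher, a call being an adjusted p under 0.05 with at least a 2-fold change, while 36.6% of the 17987 features tested were called higher. The median log2 fold change was 6.08 over the members and 0.26 over all features. In round spermatids against spermatogonia, 8 of 8 members were again called higher, against 38.5% of all features, with log2 fold changes between 4.14 for Catsperg1 and 9.62 for Catsper4. These comparisons share the spermatogonia libraries.

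In round spermatids against pachytene, 3 of 8 members were called higher, Catsper1, Catsper3 and Catsper4, and none was called lower. Of all features, 27.3% were called higher and 13.4% lower. Without the fold limit, Catsper2 was also higher at an adjusted p under 0.05, as were 41.4% of all features, and all 4 auxiliary genes were lower, as were 33.4% of all features. Of those 4, Catsperd was the marginal case, since leaving out any pachytene or round spermatid library gave it an adjusted p of 0.0646 to 0.103. The median log2 fold change was 0.11 over the members and 0.13 over all features, and the library ranges of the stages were apart for each of the 8 members. Setting the library medians equal moved the all-feature median to -0.23. Catsperg1 was then called lower, with a log2 fold change of -1.04 (adjusted p = 1.36e-06), and Catsper2 had 0.18 (adjusted p = 0.0885).

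The make-up of the CatSper transcript pool, meaning here the summed FPKM of the 8 members, differed between the later stages. Other subunit genes are left out of this pool, among them Catsperz, Efcab9, Tmem262 and Catspere2. Those averaged 535.2, 396.8, 137.5 and 12.2 FPKM in round spermatid libraries and 467.3, 33.6, 9.82 and 54.4 FPKM in pachytene libraries. The shares therefore hold only within the 8 members. FPKM is a level per transcript length, so levels of different genes can be set side by side within a library. The summed level of the pore-forming genes averaged 409.6 ± 11.3 FPKM in round spermatids and 144.7 ± 0.131 FPKM in pachytene cells, and that of the auxiliary genes 198.8 ± 8.88 and 280.5 ± 6.71 FPKM in those stages (SD, n = 3 each). Pore-forming genes thus held 67.3 ± 0.915% of the pool in round spermatids and 34.0 ± 0.548% in pachytene cells. The share of Catsper4 was 15.1% in round spermatid and 1.62% in pachytene libraries. That of Catsper3 was 12.01% and 1.28%, and that of Catsper1 9.65% and 1.07%, in the same order. The pachytene level of these genes cannot be told apart from round spermatid RNA within those libraries. The share of Catsper2 was 30.6 ± 0.69% in round spermatids and 30.1 ± 0.50% in pachytene cells (exact two-sided permutation p = 0.4, in a test that cannot go below 0.1). That difference of 0.56 percentage points depended on how the share was formed, at -2.16 points with shares of summed log2(FPKM + 1) and -8.63 points without Catsperg1 and Catsperg2 in the sum. The auxiliary shares were 6.59% to 9.49% in round spermatids and 15.1% to 17.3% in pachytene cells. For the 7 members other than Catsper2 the libraries of the stages were apart and the exact permutation p was 0.1, adjusted 0.114 over 8 shares. With 3 libraries against 3, none of these shares could pass 0.05. The shares of a library sum to 100%, so a rise in some lowers the others, and the differences are not separate results.

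**Figure D2:**
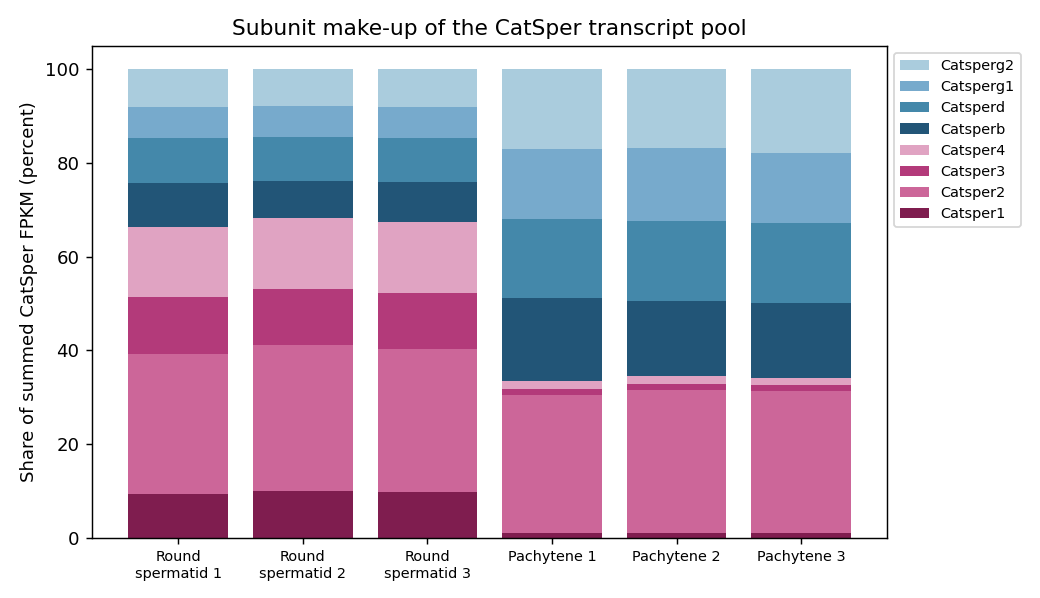
Share of the summed FPKM of the 8 members held by each, in percent, in each round spermatid and pachytene library. Other subunit genes are not in the sum. Catsper1, Catsper3 and Catsper4 together hold 36.7% on average in round spermatids and 3.97% in pachytene libraries, and Catsper2 holds 30.6% and 30.1% in those stages.

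The order of levels differed accordingly. In pachytene libraries Catsper2 stood above Catsperg2, Catsperd and Catsperb, whose library ranges overlapped from neighbour to neighbour. Catsperg1 came next, at 63.6 to 65.4 FPKM, just below the 67.3 to 77.1 FPKM of Catsperb. Catsper4, Catsper3 and Catsper1 followed far lower, at means of 6.89, 5.46 and 4.54 FPKM, each range apart from the next. In round spermatids Catsper2 was followed by Catsper4 and Catsper3, each apart from the next. Catsper1, Catsperd, Catsperb and Catsperg2 then overlapped from neighbour to neighbour, and Catsperg1 was lowest. By profile likeness, the root mean square difference of centred log2 values over the 9 libraries, the closest member pairs were Catsper1 with Catsper4 (0.247) and Catsperd with Catsperg2 (0.264), against 1.68 for the near copies Catsperg1 and Catsperg2. Catsper1 with the other pore gene Catsper2 had 1.33. The 1.68 of the gamma copies came mainly from spermatogonia, with means of 2.18 FPKM for Catsperg1 and 0.129 FPKM for Catsperg2. The latter is near the pseudocount of 0.1 FPKM. In round spermatids against pachytene the copies were close, with log2 fold changes of -0.68 and -0.60.

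The pachytene level as a percentage of the round spermatid level separated the members. It was 7.74% for Catsper1 (7.53 to 7.88% over the pachytene libraries), 7.47% for Catsper3 (7.13 to 7.76%) and 7.52% for Catsper4 (7.41 to 7.71%). It was 68.6% for Catsper2, 134% for Catsperb, 125% for Catsperd, 160% for Catsperg1 and 152% for Catsperg2. The 12 round spermatid markers had 7.21% to 12.8%, with a median of 8.84%. Catsper1, Catsper3 and Catsper4 thus stood in pachytene libraries at the level, relative to round spermatids, of genes that define the later cell.

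**Figure D3:**
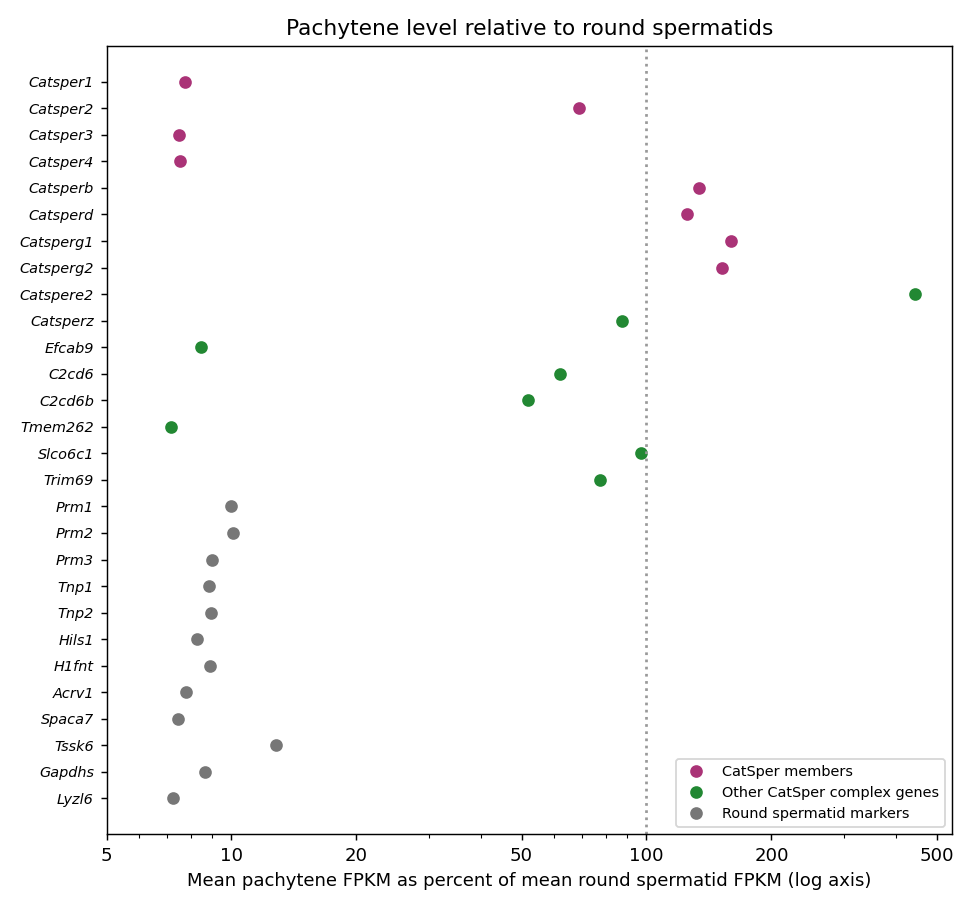
Mean pachytene FPKM as a percentage of mean round spermatid FPKM, on a log axis, for the 8 members, 8 other CatSper complex genes and 12 round spermatid markers; the dotted line marks equal levels. Catsper1, Catsper3, Catsper4, Efcab9 and Tmem262 lie between 7.15% and 8.46%, where the markers span 7.21% to 12.8%, and the other members lie at 68.6% or more.

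Across the transcriptome that percentage had a lower edge. Of the 6402 protein-coding features with a mean of at least 10 FPKM in round spermatids, 2 (0.0312%) had a pachytene level under 5% of the round spermatid level, 562 (8.78%) lay between 5 and 10%, 251 (3.92%) between 10 and 15%, and 2978 (46.5%) at 100% or above. Catsper1, Catsper3 and Catsper4 lay at this edge. When a share of the mean round spermatid level was subtracted from each library, the share being the library's median over the 12 markers, 8.49%, 9.16% and 8.57% in pachytene replicates 1 to 3 and at most 0.00393% in spermatogonia, the pachytene values of these 3 genes became 0, because their percentages lie below that share. For them the subtraction therefore only restates those percentages, and the folds it gives have no meaning of their own. Catsper2 and the 4 auxiliary genes, 5 of 8 members, were still called higher in pachytene against spermatogonia after it. Their pachytene levels were 68.6% or more of the round spermatid level, far above the share subtracted. Their calls could therefore hardly change, and the subtraction is no separate support for them. Transcripts made in pachytene cells and round spermatid RNA within the pachytene libraries cannot be told apart for Catsper1, Catsper3 and Catsper4.

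**Figure D4:**
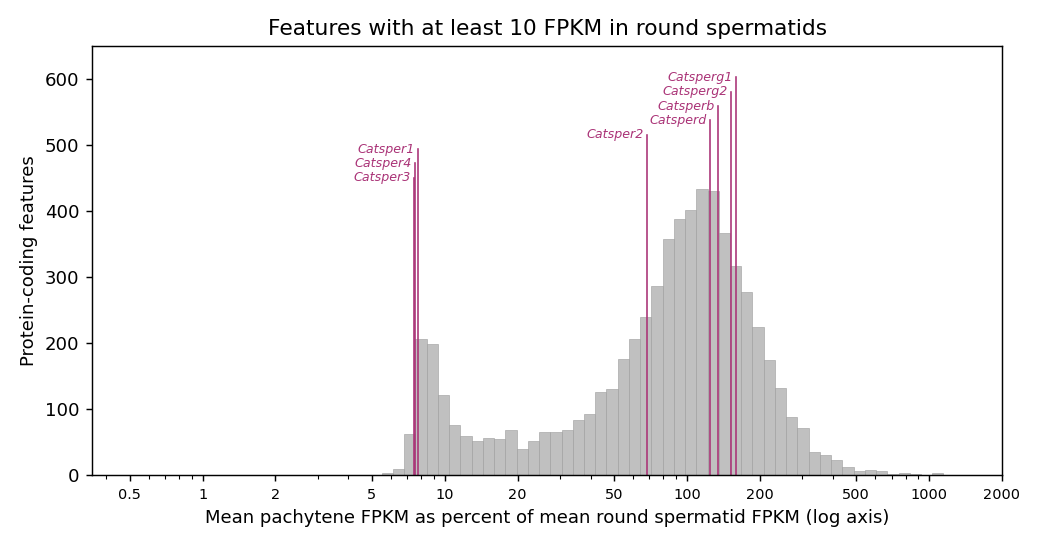
Number of protein-coding features, of 6402 with a mean of at least 10 FPKM in round spermatids, by mean pachytene FPKM as a percentage of mean round spermatid FPKM (log axis); red lines mark the 8 members. Catsper1, Catsper3 and Catsper4 sit at the lower edge of a separate group of features, and the other 5 members lie within the main body.

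Other genes of the CatSper complex also differed in when they were high. Of a list of 10, 8 were matched in the mRNA table, not Catspere1 and Tmem249, and all 8 were called higher in pachytene against spermatogonia, with a median log2 fold change of 7.13, where 36.6% of all features were called higher. In round spermatids relative to pachytene cells, 2 were called higher, 1 lower and 5 neither, shares near the 27.3% higher and 13.4% lower of all features. Efcab9, the EF-hand calcium sensor of the channel, averaged 396.8 ± 11.7 FPKM in round spermatids and 33.6 ± 2.79 FPKM in pachytene cells, a log2 fold change of 3.56 (SE 0.14, adjusted p = 3.62e-08). Tmem262, a small membrane subunit listed in the file as BC048609, averaged 137.5 ± 0.812 FPKM in round spermatids and 9.82 ± 1.91 FPKM in pachytene cells, a log2 fold change of 3.81 (SE 0.26, adjusted p = 1.03e-06). Their pachytene levels were 8.46% and 7.15% of the round spermatid level, in or just below the 7.21% to 12.8% of the round spermatid markers. For both genes, transcripts made in pachytene cells and round spermatid RNA within the pachytene libraries cannot be told apart.

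Catsperz (Tex40 in the file), whose protein binds EFCAB9, did not share the Efcab9 pattern. It averaged 535.2 ± 15.7 FPKM in round spermatids and 467.3 ± 13.8 FPKM in pachytene cells, a log2 fold change of 0.20 (SE 0.12, adjusted p = 0.151). Catspere2 (Gm16432 in the file), an auxiliary extracellular subunit gene, fell to 12.2 ± 0.914 FPKM in round spermatids, against 54.4 ± 2.55 FPKM in pachytene cells, a log2 fold change of -2.15 (SE 0.071, adjusted p = 1.24e-08). C2cd6, needed to carry the channel into the flagellum, averaged 293.6 ± 14.7 FPKM in round spermatids and 181.6 ± 7.92 FPKM in pachytene cells and was not called (log2 fold change 0.69). Its relative C2cd6b, the transporter gene Slco6c1 and the ubiquitin ligase gene Trim69 had log2 fold changes of 0.94, 0.05 and 0.37 and were not called either. The file lists C2cd6 and C2cd6b under a common older symbol, Als2cr11.

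A further list held 30 genes of ion transport and signalling in the sperm tail, 28 of which passed the filter, all but Slc9b2 and Slc26a3. In pachytene against spermatogonia 22 were called higher and 1 lower, the anion exchanger gene Slc26a6, where 36.6% of all features were called higher and 31.0% lower. The largest rises were those of Ppp3r2, a calcineurin subunit of the testis, at a log2 fold change of 9.62, the sperm sodium-proton exchanger gene Slc9c1 at 9.52, and the fibrous sheath genes Akap4 at 8.23 and Akap3 at 7.60. In round spermatids against pachytene 14 were called higher and 2 lower, the calmodulin gene Calm2 at -2.57 and the proton channel gene Hvcn1 at -1.11, where 27.3% of all features were called higher and 13.4% lower. Lrrc52, whose product assists the sperm potassium channel, and the chloride channel gene Best1 led with 3.67 each, before Cabyr and Akap3 with 3.54 each. The pachytene level was 7.68% of the round spermatid level for Lrrc52, 7.81% for Best1, 8.55% for Cabyr, 8.57% for Akap3 and 8.72% for Akap4. These lie within the 7.21% to 12.8% of the round spermatid markers. For such genes, transcripts made in pachytene cells and round spermatid RNA within the pachytene libraries cannot be told apart. Slc9c1 had 103% and Ppp3r2 110%, so this list too held genes of both kinds.

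Next to Catsper3 lies an antisense-type long non-coding RNA, 4930451E10Rik (chr13:55775136-55784505, minus strand), whose annotated start is 62 bases from that of Catsper3 on the opposite strand, with no shared exon base. It is in the authors' lncRNA table, which has a larger FPKM scale, so its level cannot be set beside that of Catsper3. On that scale it was listed at 0, 1.91 and 5.31 FPKM in spermatogonia, 103.0, 110.7 and 129.9 FPKM in pachytene and 1373, 1044 and 1519 FPKM in round spermatids. The stages did not overlap. The log2 fold change was 6.80 in pachytene against spermatogonia (SE 1.23, adjusted p = 0.00157) and 10.30 in round spermatids against spermatogonia (adjusted p = 0.000116), both called higher, as were 31.6% and 37.5% of the 4009 lncRNA features tested. In round spermatids against pachytene it was 3.51 (adjusted p = 0.0586) and was not called, where 22.5% of lncRNA features were called higher. Relative to round spermatids, its profile and that of Catsper3 ran alongside each other, with pachytene means under 10%. Of the 6402 protein-coding features with at least 10 FPKM in round spermatids, 562 (8.78%) lay between 5 and 10%. Such a pachytene level is therefore not particular to this pair. The lncRNA averaged 114.5 FPKM in pachytene and 1312 FPKM in round spermatid libraries. As for Catsper3, transcripts made in pachytene cells and round spermatid RNA within the pachytene libraries cannot be told apart. Pcbd2, the coding gene 7737 bases before Catsper3 on the same strand, was called higher in round spermatids (3.53 ± 0.114 FPKM) against pachytene cells (1.05 ± 0.521 FPKM), but averaged 4.59 ± 0.915 FPKM in spermatogonia.

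**Figure D5:**
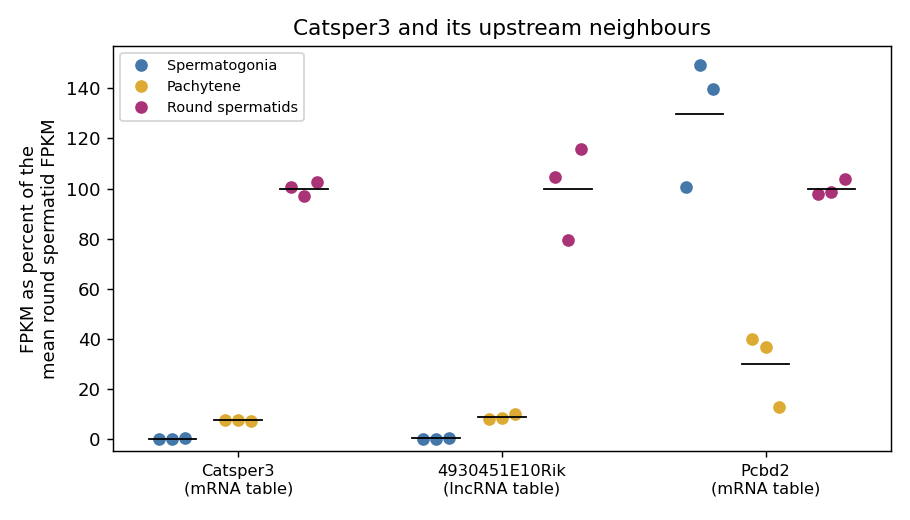
Level of Catsper3, the divergent lncRNA 4930451E10Rik and the upstream gene Pcbd2 in each library, as a percentage of the feature's own mean in round spermatids; points are libraries and bars are means of 3. Catsper3 and 4930451E10Rik are near 0 in spermatogonia and under 10% on average in pachytene cells, and Pcbd2 is highest on average in spermatogonia.

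The other neighbours within 10 kb followed no common course. Cnksr1, 657 bases before Catsper4 on the same strand, averaged 3.28 ± 0.678 FPKM in round spermatids and 0.155 ± 0.104 FPKM in pachytene cells, a log2 fold change of 3.80 (SE 0.44, adjusted p = 3.86e-05). Next to Catsperg1, the proteasome gene Psmd8 averaged 288.2 ± 4.05 FPKM in round spermatids and 296.9 ± 8.71 FPKM in pachytene cells, and the gametogenetin gene Ggn 65.4 ± 2.32 and 51.1 ± 2.03 FPKM in those stages. Ranbp3, near Catsperd, averaged 59.4 ± 2.88 FPKM in round spermatids and 117.1 ± 1.60 FPKM in pachytene cells, a log2 fold change of -0.98 (SE 0.065, adjusted p = 8.82e-07) against -0.32 for Catsperd. The pseudogenes Gm14001 and Gm14000, in introns of Catsper2, averaged 1.52 and 0.494 FPKM in round spermatids and 6.72 and 1.92 FPKM in pachytene cells.

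The 8 protein-coding genes most like the mean CatSper profile, among 8767 with at least 10 FPKM in a stage, were Nme5, Papolb, Spa17, Erich2, Ccdc154, Ttc39d, Ttll13 and Ak8, at root mean square differences of 0.149 to 0.208 over 9 libraries. For single members the nearest was Ace3 for Catsper1 (0.0758), Cage1 for Catsper2 (0.147), Gm5941 for Catsper3 (0.182), BC048671 for Catsper4 (0.0928), Poteg for Catsperb (0.142), Mroh8 for Catsperd (0.109), Hunk for Catsperg1 (0.0562) and Wdr65 for Catsperg2 (0.126). Ace3 was listed at 57.0, 58.3 and 60.9 FPKM in round spermatids and 4.82, 4.34 and 4.26 FPKM in pachytene cells, nearly the values of Catsper1 itself.

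The authors' deposited table of called features for pachytene against spermatogonia listed 5 of the 8 members and did not list Catsper1, Catsper3 and Catsperb. The authors' deposited table for round spermatids against pachytene listed all 8, with log2 fold changes from -0.68 for Catsperg1 to 3.74 for Catsper3 and a largest q-value of 0.0371, that of Catsper2.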

How the data were processed

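Per the labels' protocols, total RNA (1 µg) was isolated with a Qiagen kit and made into stranded Illumina TruSeq libraries read as 100 bp pairs. Per the submitters' processing notes, the tools were Cuffdiff 2.2.1, TopHat2 2.0.12, Trim Galore and FastQC, on mm10; options, annotation and strand setting are not given in those sources. FPKM values were deposited per feature and library in an mRNA and a lncRNA table, scaled separately, and tables of called features with a log2 fold change, p-value and q-value. Depth is not stated; steps in low FPKM values imply 17.5 to 56.7 M (mega) fragments per library, an estimate. Of 39336 mRNA features, 31 lacked a value in some library and were dropped.

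Values were tested as log2(FPKM + 0.1) with limma 3.58.1 (R 4.3.3), with a mean trend, over all 9 libraries and every feature that reached 0.5 FPKM in 3 libraries or more (17987 mRNA and 4009 lncRNA features), with Benjamini-Hochberg adjustment over each table. The fit was tested on simulated data. Shares of summed FPKM were compared with exact permutation tests (scipy 1.17.1). A ± is an SD over 3 libraries. Coordinates are 1-based on GRCm38 (mm10), with exons and identifiers from GENCODE M21. The genes named are all members, every matched complex gene, features within 10 kb of a member and the nearest profiles. From the signalling list they are the 4 largest rises, the lower calls and the genes below the filter. These are given for pachytene against spermatogonia and for round spermatids against pachytene. Round spermatids against spermatogonia is not described for that list. Neighbours without values in the text had low or dissimilar levels. Members and lists were chosen with earlier results of these data known, and the grouping of Catsper1, Catsper3 and Catsper4 and the calls without a fold limit were chosen after their values were seen.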

Additional observations from a re-analysis of the deposited data

How the results depend on the processing

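With the round spermatid share subtracted, 5 members in place of 8 were called higher in pachytene against spermatogonia and 1, Catsper3, was lower at an adjusted p under 0.05; the log2 fold changes of Catsper1, Catsper3 and Catsper4 became -0.073, -0.83 and -0.19, by construction, since their pachytene values were set to 0. With equal library medians, 1 member in place of 0 was called lower in round spermatids against pachytene, Catsperg1 at -1.04. The features called lower there numbered 4115 with equal medians and 4052 with quantile normalization, against 2418, with 3986 and 3729 called higher, against 4915, and the all-feature median was -0.23 and -0.25. In the other comparisons with spermatogonia, quantile normalization gave 5223 higher and 6435 lower for pachytene, against 6584 and 5570, and 5308 higher and 7617 lower for round spermatids, against 6926 and 5410. The Catsper2 share of the pool, 0.56 percentage points higher in round spermatids, became -2.16 points with shares of summed log2(FPKM + 1) and -8.63 points without Catsperg1 and Catsperg2. The cause was not tested, beyond what each construction changes. Another pseudocount, no filter, no mean trend and fits on 6 libraries changed no direction of a member and no call with the 2-fold limit, nor did leaving out any library. Without the fold limit, 3 in place of 4 members were lower in round spermatids against pachytene with a pseudocount of 0.01, no filter, no mean trend or the share subtracted, and without any library of those stages; Catsperd, with adjusted p of 0.125, 0.11, 0.0534, 0.141 and 0.0646 to 0.103, was the member lost. Same-numbered libraries of different stages had correlations of deviations from the stage means of -0.106 to 0.039, and other-numbered ones -0.062 to 0.116. The labels do not say whether the numbers pair the samples, and these correlations cannot decide it. With the replicate number as a block, 8, 3 and 8 members were called higher in pachytene against spermatogonia, round spermatids against pachytene and round spermatids against spermatogonia, as without it. Levels under 0.5 FPKM in spermatogonia rest on few fragments, and their folds depend on the pseudocount.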
